A study of Mus musculus with 21 samples.

Results

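The metallothionein genes Mt1 and Mt2 and the gene of their regulator, Mtf1, were followed in RNA from the colon and ileum of mice that differed in the vitamin D receptor (VDR). The genes were chosen by name, as 3 of the 21441 genes listed in each of 6 deposited expression tables. Each table holds 2 of the 3 groups of 1 tissue: KO, uninjected and treated.

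KO mice had the genotype Villin-CreERT2 VDR f/f, in which a Cre recombinase active in the intestinal epithelium is switched on by tamoxifen. They received no treatment per the labels, which do not state whether or when tamoxifen was given. All KO mice were male. Of the 4 in each tissue, 1 was 9 weeks old and 3 were 11 weeks old. Uninjected mice were CDX2-VDR transgenics, which lack their own VDR and carry the human receptor in the distal intestine. The colon group held 4 of them, 3 labelled female at 9 weeks and 1 male at 10 weeks, and the ileum group 3, 2 labelled female at 9 weeks and 1 male at 10 weeks. Treated mice were CDX2-VDR transgenics given 3 injections of 1,25-dihydroxyvitamin D3 (1,25D3, the active hormone) at 1 ng per g of body weight, 48, 24 and 6 h before the end, and were 9-week-old males, 3 per tissue. All mice were on the C57BL6J background, and the tissue is given as intestinal epithelium. No group received injections without hormone, so that injection and 1,25D3 cannot be told apart, and neither can genotype and the route by which the mouse receptor was lost. The labels name no individual animals, so the p-values below measure only the spread between these libraries, some of which may be technical.

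Metallothioneins are small, cysteine-rich proteins that bind zinc and copper inside the cell and buffer the free metal. Their genes are switched on by zinc, by glucocorticoids and by inflammatory and oxidative signals. Metal-responsive transcription factor 1, the product of Mtf1, senses zinc through its zinc fingers and binds metal response elements in metallothionein promoters. In the intestine these proteins hold zinc within enterocytes and Paneth cells.

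In mm9, the build named for these data, Mt2 lies on the plus strand at chr8:96696518-96697467 and Mt1 at chr8:96702989-96704225. The end of Mt2 and the start of Mt1 are 5521 bases apart. The other genes of the cluster are Mt3, at chr8:96676507-96678048, and Mt4, at chr8:96661104-96662931, and the 4 genes span 43122 bases. Mtf1 lies apart from them, at chr4:124479348-124527044. The Mt1 and Mt2 transcripts share no exact run longer than 20 bases, and no stretch of at least 50 bases of either aligned elsewhere in mm9 at 95% identity or more. Reads of the pair could therefore be told apart by sequence, although how the authors treated reads with several matches is not given in the sources used here.

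The promoters of Mt1 and Mt2 are shown because the regulator reads them directly. They are the RefSeq windows of GRCm38.p6, each 300 bases long on the plus strand, with 250 bases before the gene's annotated start and 50 after it. The Mt1 window is chr8:94178839-94179138 and the Mt2 window chr8:94172368-94172667. Capitals mark the core of the metal response element, TGCACNC or TGCGCNC, searched on both strands, and a core on the minus strand appears as its reverse complement.
Mt1: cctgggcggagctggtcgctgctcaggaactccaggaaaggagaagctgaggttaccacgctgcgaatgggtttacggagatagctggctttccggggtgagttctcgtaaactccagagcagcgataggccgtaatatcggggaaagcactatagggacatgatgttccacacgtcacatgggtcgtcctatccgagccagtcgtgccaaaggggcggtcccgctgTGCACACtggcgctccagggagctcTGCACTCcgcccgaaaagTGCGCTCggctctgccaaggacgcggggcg
Mt2: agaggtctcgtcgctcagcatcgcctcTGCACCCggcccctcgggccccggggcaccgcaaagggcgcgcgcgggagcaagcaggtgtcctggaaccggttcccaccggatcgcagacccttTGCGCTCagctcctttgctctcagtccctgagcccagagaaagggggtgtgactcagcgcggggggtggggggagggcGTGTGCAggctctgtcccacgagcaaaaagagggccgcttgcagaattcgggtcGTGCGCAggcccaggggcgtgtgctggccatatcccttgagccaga

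The Mt1 window held 3 cores, whose first bases lay 23 bases before the start and 2 and 20 bases after it. The Mt2 window held 4, of which those on the plus strand lay 223 and 128 bases before the start and those on the minus strand 50 bases before and 4 bases after it. Of all 32851 RefSeq promoter windows of this length, 25.7% held at least 1 core, 1.97% at least 3 and 0.517% at least 4. The window of Mtf1 itself, at chr4:124802299-124802598, held none. The core of the antioxidant response element, TGACNNNGC, was found once in the Mt2 window and not in those of Mt1 and Mtf1, against 12.4% of all windows. The direct-repeat vitamin D response element (DR3), searched in both orientations, was in none of the 3 windows and in 0.0396% of all windows. A match describes the letters only, and no binding was measured. Positions are counted from the annotated start, and where transcription starts in these tissues was not examined. Sequence outside the windows was not searched, so elements near another start would be missed.

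Levels are deposited as FPKM, fragments per kilobase of gene length, and can be compared between genes because they are per length. How libraries were scaled to each other is not given in the sources used here. Each table was scaled on its own, so that a library differs by a constant factor between tables, and groups are compared here within a table. Libraries are named by their group and the number in their column heading. The 21 libraries held 8031739 to 35039705 reads over the 14532 genes whose values could be turned back into whole reads. Behind the values below stood 1669 to 11031 reads per library for Mt1, 262 to 8002 for Mt2 and 280 to 2802 for Mtf1, so that counting error is small beside the spread between libraries. All 9 epithelial markers, such as Epcam and Vil1, were present in every group, with summed levels between 6000 and 21700 FPKM. Transcripts of pancreatic acinar cells reached a summed 108000 FPKM in Colon uninjected 3 and 31100 in Colon KO 2, against 105 and 203 in the lowest libraries of these groups, and values without both libraries are given where they differ. Colon treated 4, with 15000 FPKM against 73.7 in the lowest treated colon library, held them too. Values without it are given for Mt2, for the ratio of Mt1 to Mt2, and for both genes against KO. In the ileum, Ileum uninjected 3 reached a summed 887 FPKM where Ileum KO 3, the highest KO library, had 58.9. Ileum treated 4 reached 503 FPKM where Ileum KO 3 had 61.9. The part of acinar transcripts in the values of either tissue was not tested. The gene-level value of Vdr does not resolve the deleted part and can take up reads of the human transgene, so that its levels, 20.6 to 23.5 FPKM in Colon KO and 12.7 to 34.0 in Colon uninjected, do not check the labels. The Y-linked Ddx3y was below 1 FPKM in Colon uninjected 1 and 2 and Ileum uninjected 1, and Colon uninjected 3, labelled female, had 12.1 FPKM. In the remaining libraries it was at 1.61 FPKM or more, but 2 of these were low for their group. Ileum treated 1, of a group labelled male, had 1.61 FPKM against 10.5 and 14.1 in Ileum treated 2 and 4. Ileum uninjected 3 had 2.24 FPKM against 8.79 in Ileum uninjected 4. A limit of 1 FPKM, used for a choice of libraries below, keeps both.

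Mt1 was the most abundant of the 3 transcripts in every library, Mt2 the next and Mtf1 the least. In the tables of uninjected and KO mice, Mt1 averaged 369.7 ± 169.6 FPKM in Colon KO (SD, n = 4) and 191 FPKM in Ileum KO (n = 4), Mt2 152.5 ± 104 and 47.1, and Mtf1 5.19 ± 0.23 and 8.08 ± 1.04. These tissue levels come from tables scaled separately and are set side by side without a test. The sum of Mt1 and Mt2 was 46.9 to 181 times the Mtf1 level in Colon KO and 21.8 to 39.0 times in Ileum KO. It was 142 to 337 and 65.6 to 171 times in uninjected mice, and 170 to 423 and 80.9 to 138 times in treated mice.

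**Figure D1:**
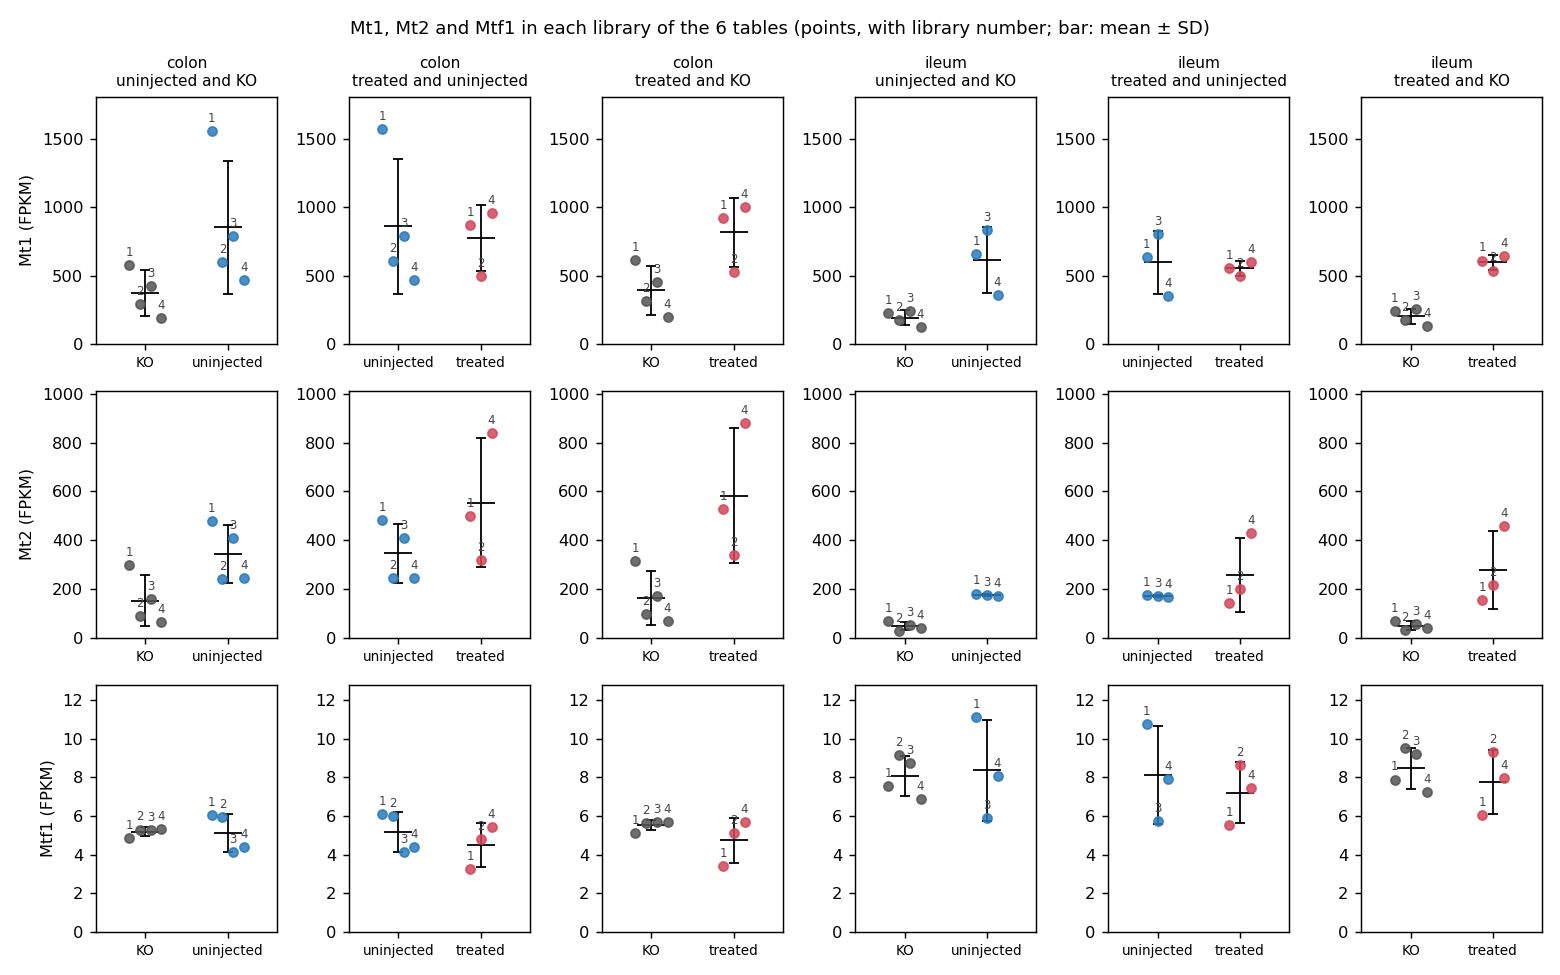
Level of Mt1, Mt2 and Mtf1 in every library (FPKM, linear axis from 0) of the 6 tables, with numbered points for libraries and bars for the group mean ± SD. The KO means of Mt1 and Mt2 lie below those of both transgenic groups, without overlap of libraries in the ileum, while the Mtf1 groups overlap in all 6 tables.

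The first comparison asked how transgenic mice that were not injected differ from KO mice. In the colon, both metallothionein transcripts had higher means in uninjected mice, but neither passed the test. Mt1 was at 579, 293, 421 and 186 FPKM in Colon KO 1 to 4 and at 1561, 601, 791 and 467 FPKM in Colon uninjected 1 to 4. The groups overlapped, since Colon KO 1 lay above Colon uninjected 4, and Colon uninjected 1 stood highest. On log2(FPKM + 0.5), which hardly alters values of this size, Mt1 was higher by 1.18 (SE 0.449). This gave an adjusted p of 0.721 by limma, a linear model fitted across the 12437 genes that averaged 1 FPKM or more, with Benjamini-Hochberg adjustment and a threshold of 0.05. Exchanging the libraries between groups in every possible way, an exact permutation test (two-sided, on the difference of mean FPKM) gave p = 0.0571, with 0.0286 the smallest this design allows.

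Mt2 followed the same order of libraries within the KO group. It was at 297, 90.04, 159 and 64.5 FPKM in Colon KO 1 to 4 and at 477, 241, 410 and 245 FPKM in Colon uninjected 1 to 4. Again only Colon KO 1 reached into the range of the uninjected libraries. The difference was 1.35 (SE 0.464, limma adjusted p = 0.721), and the exact permutation p was 0.0857. Mtf1 was nearly level between the groups, at 5.19 ± 0.23 FPKM in KO and 5.12 ± 1.00 FPKM in uninjected mice (SD, n = 4 each), a difference of -0.03 (SE 0.2, limma adjusted p = 0.954).

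In this comparison 0.0804% of genes passed the test, 4.6% had an unadjusted p under 0.05 and 1.22% were higher in uninjected mice without overlap. Of the 3 genes described here, none passed, Mt1 and Mt2 had an unadjusted limma p under 0.05, and none was free of overlap. The difference was at or above that of Mt1 in 1.17% of genes tested and at or above that of Mt2 in 0.756%, where the median of all genes was -0.01. With a trend of each library on GC content and gene length removed, the differences were 0.71 for Mt1 and 0.77 for Mt2. With labelled sex as a covariate they were 0.46 and 0.93. That fit sets Colon uninjected 4, the only uninjected colon library labelled male, against the KO libraries, and so rests on 1 library. It also takes as female Colon uninjected 3, which had Ddx3y at 12.1 FPKM. Leukocyte markers summed to 25.9 to 47.2 FPKM in KO and 43.8 to 113 FPKM in uninjected mice over 9 of 9 genes, none at 0 in a whole group. These ranges overlapped. Of the 8 leukocyte genes tested, 5 had positive differences, the median was 0.74, and none passed. The summed markers of Paneth cells, which hold much zinc, were at 43.2 to 1530 FPKM in uninjected and 1500 to 3390 FPKM in KO mice over the 6 of 7 found. This sum rested on Ang4, an antimicrobial ribonuclease singled out after its values were seen, at 241 and 2345 FPKM (-4.11, limma adjusted p = 0.721). Of the 5 Paneth genes tested, 3 had positive differences, the median was 0.74, and none passed. The sum thus followed Ang4 and not the list as a whole, and is no measure of Paneth cells in the colon. The part of either in the metallothionein levels was not tested, and in bulk tissue fewer cells of a type and less RNA per cell cannot be told apart.

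In the ileum the same comparison separated the groups for both metallothioneins. Mt1 was at 228, 171, 241 and 125.03 FPKM in Ileum KO 1 to 4 and at 657, 835 and 356 FPKM in Ileum uninjected 1, 3 and 4. Every uninjected library lay above every KO library, with means of 616 and 191 FPKM, a ratio of 3.22. The difference was 1.65 (SE 0.386), with an unadjusted limma p of 0.00203 and an adjusted p of 0.665.

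Mt2 in Ileum KO 1 to 4 was at 67.6, 28.8, 53.9 and 38.2 FPKM, and in Ileum uninjected 1, 3 and 4 at 181, 176 and 172 FPKM. The uninjected libraries were close together and the lowest stood clear of the highest KO library, with a ratio of means of 3.74. The difference was 1.97 (SE 0.325), with an unadjusted limma p of 0.000182, the fifth smallest of 11827 genes (rank 5), and an adjusted p of 0.43. For Mt1 the rank was 25. For both genes the exact permutation p was 0.0571, the smallest that 3 libraries against 4 allow.

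Mtf1 was at 8.36 ± 2.62 FPKM in uninjected (SD, n = 3) and 8.08 ± 1.04 FPKM in KO ileum (n = 4). Its groups overlapped, and the difference was 0.01 (SE 0.27, limma adjusted p = 0.985). Among all genes, 0.00846% passed the test, 5.42% had an unadjusted p under 0.05 and 5.26% were higher without overlap, against 0, 2 and 2 of these 3 genes. Leukocyte markers summed to 106 to 183 FPKM in KO and 159 to 415 FPKM in uninjected ileum, and Paneth cell markers to 23400 to 40000 and 2040 to 32200 FPKM. Both pairs of ranges overlapped. Of the 8 leukocyte genes tested, 7 had positive differences, with a median of 0.62. None of the 6 Paneth genes tested had a positive difference, and their median was -1.55. None of either list passed, and the median of all genes was 0.01. All 11 acinar genes tested had positive differences, with a median of 1.08, and none passed. The part of these 3 lists in the Mt1 and Mt2 values was not tested. Without the uninjected library that lacked Ddx3y, the differences were 1.56 for Mt1 and 1.95 for Mt2.

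The second comparison asked what the injections of 1,25D3 were followed by in transgenic mice. No difference in any of the 3 genes exceeded the spread between libraries in either tissue. In the colon Mt1 was at 871, 499 and 957 FPKM in Colon treated 1, 2 and 4 and at 1576, 608, 792 and 469 FPKM in Colon uninjected 1 to 4. All treated libraries lay inside the uninjected range. The difference was -0.05 (SE 0.469, limma adjusted p = 1.0), and it turned to 0.18 after quantile normalization. Mt2 was at 500.3, 319 and 840.0 FPKM in treated and 482, 244, 411 and 247 FPKM in uninjected colon. The groups overlapped, with Colon treated 4 highest, and the difference was 0.63 (SE 0.426, limma adjusted p = 1.0). Without Colon treated 4 it was 0.27. Mtf1 was at 3.24, 4.80 and 5.43 FPKM in treated and 6.10, 5.99, 4.14 and 4.41 FPKM in uninjected colon, a difference of -0.19 (SE 0.307, limma adjusted p = 1.0).

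In the ileum Mt1 was at 559, 498 and 602 FPKM in Ileum treated 1, 2 and 4 and at 635, 807 and 349 FPKM in Ileum uninjected 1, 3 and 4. The treated libraries lay within the uninjected range, and the difference was -0.03 (SE 0.432), or 0.21 after quantile normalization. Mt2 was at 143, 199.5 and 430.0 FPKM in treated and 175, 170.0 and 169 FPKM in uninjected ileum. A single library, Ileum treated 4, carried the higher treated mean: the difference was 0.43 (SE 0.464) with it and -0.02 without it. Mtf1 was at 5.51, 8.62 and 7.46 FPKM in treated and 10.8, 5.72 and 7.89 FPKM in uninjected ileum (-0.14, SE 0.39). The limma adjusted p was 1.0 for all 3 genes.

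No gene of 12567 in the colon and none of 11815 in the ileum passed in this comparison (0.0% each by limma, and 0 also by voom on recovered reads), while 143 and 97 had an unadjusted p under 0.05 (1.14% and 0.821%). Genes higher in treated mice without overlap made up 1.03% and 1.48%. None of Mt1, Mt2 and Mtf1 was among any of these genes.

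Treated and KO mice were set against each other in the third pair of tables, which use the same treated and KO libraries as the others, so that these values are not independent of those above. In the colon Mt1 was at 921, 529.5 and 1003 FPKM in treated and at 614, 311, 451 and 197 FPKM in KO mice. Colon KO 1 again reached into the other group. The difference was 1.12 (SE 0.408, limma adjusted p = 0.582) and the exact permutation p was 0.114. Mt2 was at 529, 338 and 880.5 FPKM in treated and at 315, 95.4, 169.9 and 68.6 FPKM in KO colon. Here the groups did not overlap, although Colon treated 2 and Colon KO 1 lay close together. The ratio of means was 3.59 and the difference 1.98 (SE 0.536, limma adjusted p = 0.346). The exact permutation p was 0.0571, the smallest possible. Mtf1 was at 4.74 ± 1.17 FPKM in treated (SD, n = 3) and 5.52 ± 0.26 FPKM in KO colon (n = 4), a difference of -0.23 (SE 0.197, limma adjusted p = 0.818).

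In the ileum both metallothioneins were higher in every treated library than in any KO library. Mt1 was at 610.5, 537 and 643 FPKM in treated and at 237, 178, 253 and 132 FPKM in KO ileum. The treated values lay within a narrow band and the ratio of means was 2.98. The difference was 1.62 (SE 0.292), with an unadjusted limma p of 0.000344, an adjusted p of 0.195 and an exact permutation p of 0.0571. Mt2 was at 156, 215 and 459 FPKM in treated and at 70.4, 30.0, 56.7 and 40.3 FPKM in KO ileum. Ileum treated 4 was highest by far, and the ratio of means was 5.61, with a difference of 2.4 (SE 0.423), an unadjusted limma p of 0.000291 and an adjusted p of 0.183. Without Ileum treated 4 the Mt2 difference was 1.96. Mtf1 overlapped between the groups (-0.13, SE 0.248, limma adjusted p = 0.947).

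Of all genes in the colon, 0.296% passed, 7.31% had an unadjusted p under 0.05 and 4.16% were higher in treated mice without overlap, against 0, 2 and 1 of the 3 genes. In the ileum the shares were 0.0835%, 3.65% and 3.03%, against 0, 2 and 2. The difference of Mt2 was equalled or exceeded by 0.512% of genes in the colon and 0.159% in the ileum, and that of Mt1 by 1.78% and 0.459%. Goblet cell markers summed to 11100 to 16000 FPKM in treated and 19100 to 31500 FPKM in KO colon, and leukocyte markers to 88.3 to 221 and 27.8 to 50 FPKM. The median differences were -0.87 over 7 goblet genes and 0.97 over 8 leukocyte genes, and none of these genes passed. Smooth muscle markers summed to 1390 to 1720 and 2290 to 3230 FPKM in the same groups, with a median difference of -0.84 over 7 genes of which none passed, and Paneth cell markers to 126 to 553 and 1600 to 3590 FPKM, a sum again led by Ang4 (197 and 2494 FPKM, limma adjusted p = 0.0543), with a median over 5 genes of 0.49. Markers of the ileal segment, such as Fabp6, summed to 6750 to 9110 FPKM in treated and 15400 to 38300 FPKM in KO ileum. Over these 5 genes the median difference was -0.94, 1 was positive and none passed. Acinar markers summed to 44.3 to 503 FPKM in treated and 10.5 to 61.9 FPKM in KO ileum, highest in Ileum treated 4. All 11 acinar genes tested were positive, with a median of 2.05, and none passed. The part of all these markers in the metallothionein values was not tested.

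**Figure D2:**
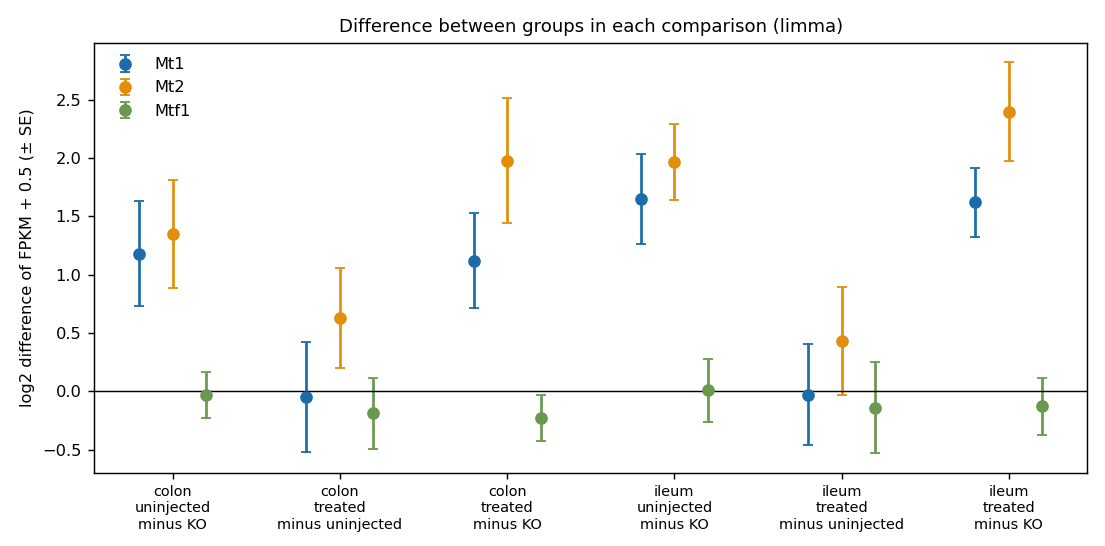
Difference in log2(FPKM + 0.5) with its standard error for Mt1, Mt2 and Mtf1 in the 6 comparisons. Mt1 and Mt2 lie between 1.12 and 2.4 where a transgenic group is set against KO and between -0.05 and 0.63 where treated is set against uninjected, Mtf1 lies between -0.23 and 0.01, and no value passed the limma threshold.

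The differences of the ileum were also set against those of the colon in 1 limma fit over both tissues. That fit took colon and ileum libraries as independent. Same-numbered libraries of the tissues, which may share a mouse, had estimated correlations of 0.28 to 0.376 over the 3 contrasts. The ileal difference between uninjected and KO mice exceeded the colonic one by 0.47 (SE 0.622) for Mt1 and by 0.62 (SE 0.607) for Mt2. For treated against KO mice the excess was 0.49 (SE 0.515) and 0.42 (SE 0.733), and for treated against uninjected mice 0.02 (SE 0.636) and -0.2 (SE 0.632). Mtf1 differed by 0.05 to 0.1 in the 3 contrasts. All limma adjusted p-values lay between 0.977 and 1.0, so a difference between tissues was not shown, and 0.00809%, 0.0% and 0.00803% of genes passed for uninjected against KO, treated against uninjected and treated against KO.

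Ordered by the means within tables, Mt2 went from KO to uninjected to treated in both tissues. Mt1 went from KO to treated to uninjected, although quantile normalization put treated above uninjected. For both genes the pair of transgenic groups were neighbours that did not differ beyond their spread. For Mtf1 the group means lay within 0.23 of each other on the log2 scale in every table and no order could be given.

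The ratio of Mt1 to Mt2 within a library is free of the scaling between libraries. In the colon, Colon KO 1 to 4 had ratios of 1.95, 3.26, 2.65 and 2.88, Colon uninjected 1 to 4 of 3.27, 2.49, 1.93 and 1.90, and Colon treated 1, 2 and 4 of 1.74, 1.56 and 1.14. All 3 treated libraries lay below all others, while KO and uninjected libraries were mixed. The treated ratio was lower by 0.86 on the log2 scale than in KO and by 0.68 than in uninjected mice. Each gave an exact permutation p of 0.0571, the smallest possible, and 0.171 after adjustment over the 6 comparisons of the ratio. Without Colon treated 4, the treated colon library with the most acinar transcripts, the differences of the log2 ratio were -0.68 against KO and -0.5 against uninjected mice. Each had an exact permutation p of 0.133, the smallest possible with 1 treated library fewer. The differences from KO without this library were 0.95 for Mt1 and 1.62 for Mt2.

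In the ileum, Ileum KO 1 to 4 had ratios of 3.37, 5.92, 4.47 and 3.27, Ileum uninjected 1, 3 and 4 of 3.62, 4.75 and 2.07, and Ileum treated 1, 2 and 4 of 3.90, 2.50 and 1.40. The groups overlapped in every pair. The treated mean was 2.60 ± 1.25 (SD, n = 3) against 4.26 ± 1.23 in KO (n = 4), a log2 difference of -0.79 with an exact permutation p of 0.171 (adjusted 0.342). In both tissues the library numbered treated 4 had the lowest ratio and the highest Mt2. Whether both came from 1 mouse is not stated, so this may be 1 observation.

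**Figure D3:**
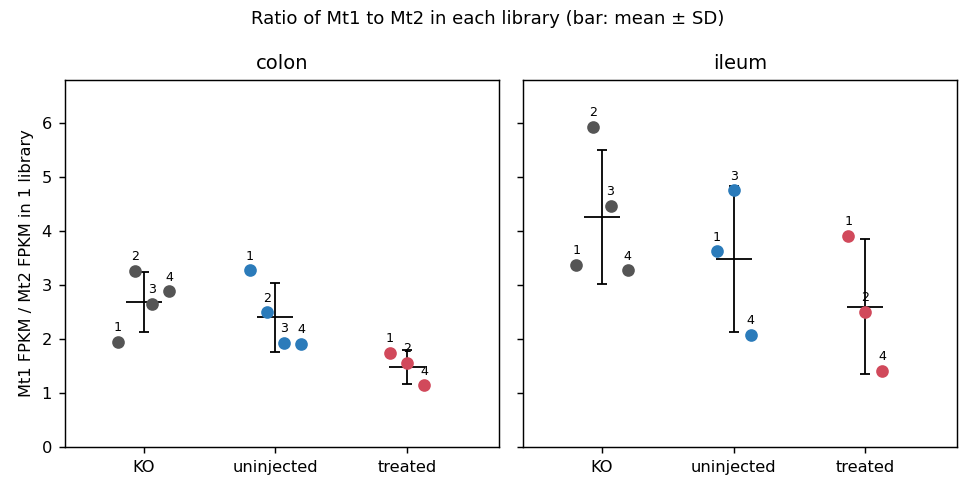
Ratio of the Mt1 to the Mt2 level within each library of both tissues, with numbered points for libraries and bars for the group mean ± SD. The 3 treated colon libraries, at 1.14 to 1.74, lie below the other colon libraries, and the ileum groups overlap.

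Mt1 and Mt2 went together from library to library in the colon. Over the 8 libraries of the uninjected and KO table, Pearson's r of their log2 values was 0.95 (exact permutation p = 0.000223, adjusted 0.00402 over the 18 relations computed) and Spearman's rho was 0.93 (exact permutation p = 0.00223). It was 0.96 without the 2 libraries farthest from the median Mt1 level, and 0.9 between deviations from the group means. In the treated and uninjected colon table r was 0.7 over 7 libraries (exact permutation p = 0.0788, adjusted 0.284), with rho 0.79 (exact permutation p = 0.048) and r 0.83 without the 2 farthest. In the matching ileum table r was 0.11 over 6 libraries (exact permutation p = 0.756, rho 0.2 with p = 0.714). Where the groups stood apart in a table, no pooled value of Mt1 with Mt2 is given. Libraries share their depth and scaling across genes, which enters these values.

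Mtf1 showed no such relation to its target genes. None of its 12 relations with Mt1 and Mt2 passed, with adjusted exact permutation p-values of 0.836 to 0.99. Over the 8 libraries of the uninjected and KO colon table, r was 0.1 with Mt1 and -0.17 with Mt2.

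**Figure D4:**
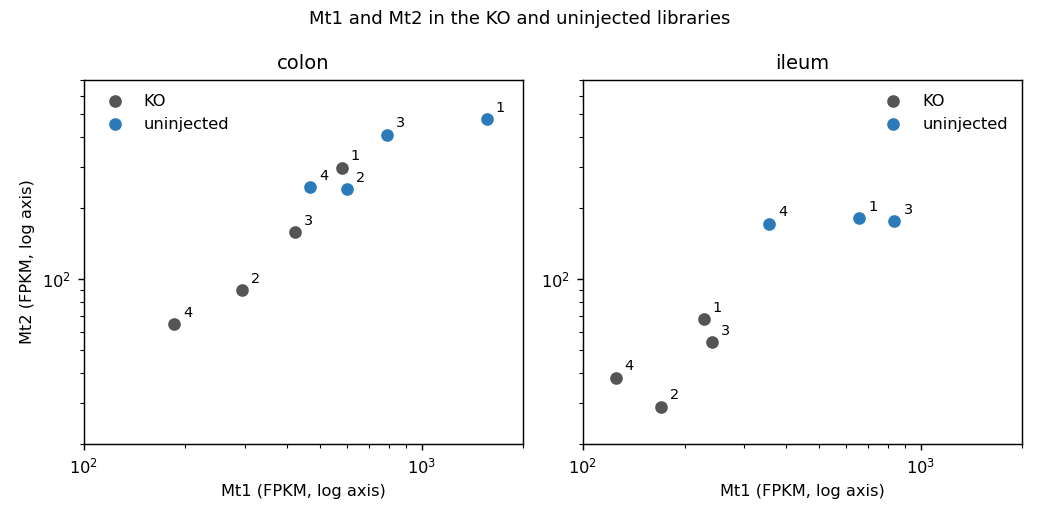
Level of Mt1 against Mt2 in each library (FPKM, both axes logarithmic) of the uninjected and KO tables of colon and ileum. In the colon both groups lie along 1 band, and in the ileum the uninjected libraries sit apart from the KO libraries in both genes.

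The neighbouring metallothioneins were much less abundant. Mt3, a family member best known from brain, was at 62.7 ± 33.6 FPKM in uninjected and 46.5 ± 20.6 FPKM in KO colon (SD, n = 4 each), a difference of 0.37 (limma adjusted p = 0.771). Against KO, treated colon was at 43.8 and 49.5 FPKM (-0.17), so that Mt3 lay on the other side of 0 from Mt1 and Mt2. In the ileum Mt3 was at 5.89 FPKM in uninjected and 3.88 in KO mice (0.49), and at 5.49 in treated and 4.06 in KO mice (0.34). Mt4, known from stratified epithelia, rested on 0 to 14 reads per library and had a mean high enough for the limma fit only in treated against uninjected colon, at 1.36 and 1.13 FPKM (0.14, limma adjusted p = 1.0). Against KO, with 0 to 3 reads in each KO colon library, its colon means were at 1.13 FPKM in uninjected and 0.197 FPKM in KO mice with overlap between the groups, and at 1.44 FPKM in treated and 0.209 FPKM in KO mice without overlap. Each gave an exact permutation p of 0.0571, and in treated against KO mice this is the smallest possible. In the ileum the exact permutation p-values of Mt4 lay between 0.3 and 0.971.

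Other genes of zinc handling were examined by lists. Of 8 reported MTF1 target genes tested, apart from the metallothioneins, none passed in any of the 6 comparisons. Their median differences lay between -0.12 and 0.26, against medians of all genes between -0.02 and 0.01. Slc30a1, which encodes the zinc exporter ZnT1 and is the best known of them, was at 10.9 FPKM in uninjected and 13.7 FPKM in KO colon (-0.31, limma adjusted p = 0.721). In the ileum it was at 18.1 FPKM in treated and 27.2 FPKM in KO mice (-0.8, limma adjusted p = 0.939). It thus lay opposite to Mt1 and Mt2 in these comparisons. Its RefSeq promoter window held 2 metal response cores, where 7.11% of all windows held at least 2. Ndrg1 was at 60.0 and 32.8 FPKM in treated and KO ileum (0.87, limma adjusted p = 0.873).

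None of the 12 tested zinc importers of the ZIP family and none of the 6 or 7 tested zinc exporters of the ZnT family passed in any comparison. The largest difference of those named by rule was that of Slc39a3 in ileum, at 6.68 FPKM in uninjected and 2.48 FPKM in KO mice (1.48, limma adjusted p = 0.665). Slc39a5, an importer of the basolateral membrane, was at 212 and 90.3 FPKM in the same groups, without overlap (1.02, limma adjusted p = 0.665). The copper list, with 8 genes tested, also had none. The copper importer Slc31a1 was at 44.6 FPKM in treated and 66.0 FPKM in KO ileum (-0.56, limma adjusted p = 0.939).

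Lists of the other signals known to raise metallothioneins were examined next, with no test between lists. Of 10 tested acute-phase and STAT3 genes, 4 rose in treated against KO colon and none fell, where 0.224% of all genes passed and were higher. The list's median was 2.27, against -0.01 for all genes. Saa3, a serum amyloid A of epithelium and phagocytes, rose by 3.64 (66.2 and 4.89 FPKM, limma adjusted p = 0.00138). Lrg1, a secreted glycoprotein, rose by 3.19 (47.4 and 4.69 FPKM, adjusted p = 0.00287 in the same limma fit). Hp, the haemoglobin scavenger haptoglobin, rose by 4.01 (124.7 and 7.90 FPKM, limma adjusted p = 0.018), and Socs3, a feedback inhibitor of cytokine signalling, by 1.44 (limma adjusted p = 0.0193). Without Colon KO 2, 2 of the 10 passed, and with other libraries left out 3 or 4 did. Leukocyte markers, given above for these libraries, also had higher sums in the treated group, and their part was not tested.

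In the other 5 comparisons no acute-phase gene passed, and the list's medians were 0.7 for uninjected against KO colon, 1.22 for treated against uninjected colon, and 1.11, 0.71 and 1.65 for uninjected against KO, treated against uninjected and treated against KO ileum. With 1 library left out, 2 genes passed in treated against KO ileum without Ileum treated 2, and 1 in treated against uninjected colon without Colon uninjected 3. The median of 0.71 in treated against uninjected ileum was 0.23 without Ileum uninjected 1 and 1.51 without Ileum treated 2, and it turned to -0.13 over the 9 genes averaging 5 FPKM or more. Saa1 was at 832 FPKM in uninjected and 132 FPKM in KO ileum (2.51, limma adjusted p = 0.665). Lcn2, a siderophore-binding protein, was at 36.8 and 2.27 FPKM in treated and KO ileum (3.26, limma adjusted p = 0.195).

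Of 11 tested genes of the oxidative stress response, only Hmox1, the haem-degrading enzyme, passed. It rose by 1.6 in treated against KO colon (SE 0.238, limma adjusted p = 0.0438), at 15.5 FPKM in treated and 4.60 FPKM in KO mice. Over the alternatives its adjusted p lay between 0.0265 and 0.236 by limma, and without Colon KO 2 it was 0.174. Nfe2l2, which encodes NRF2, was at 70.9 FPKM in uninjected and 96.6 FPKM in KO colon (-0.51, limma adjusted p = 0.721). None of 7 tested glucocorticoid-induced genes passed. The list's medians lay between -0.22, in treated against KO colon with 1 of 7 positive, and 0.13, in uninjected against KO ileum with 4 of 7 positive. The gene named here by rule stands for itself and not for the list, and its difference was 0.71 (SE 0.519) in treated against uninjected ileum. Sgk1, a kinase induced by glucocorticoids, was at 61.0 FPKM in treated and 125.4 FPKM in KO colon (-1.04, limma adjusted p = 0.0683) and at 32.6 FPKM in uninjected and 106 FPKM in KO ileum (-1.76, limma adjusted p = 0.665), opposite in direction to Mt1 and Mt2.

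**Figure D5:**
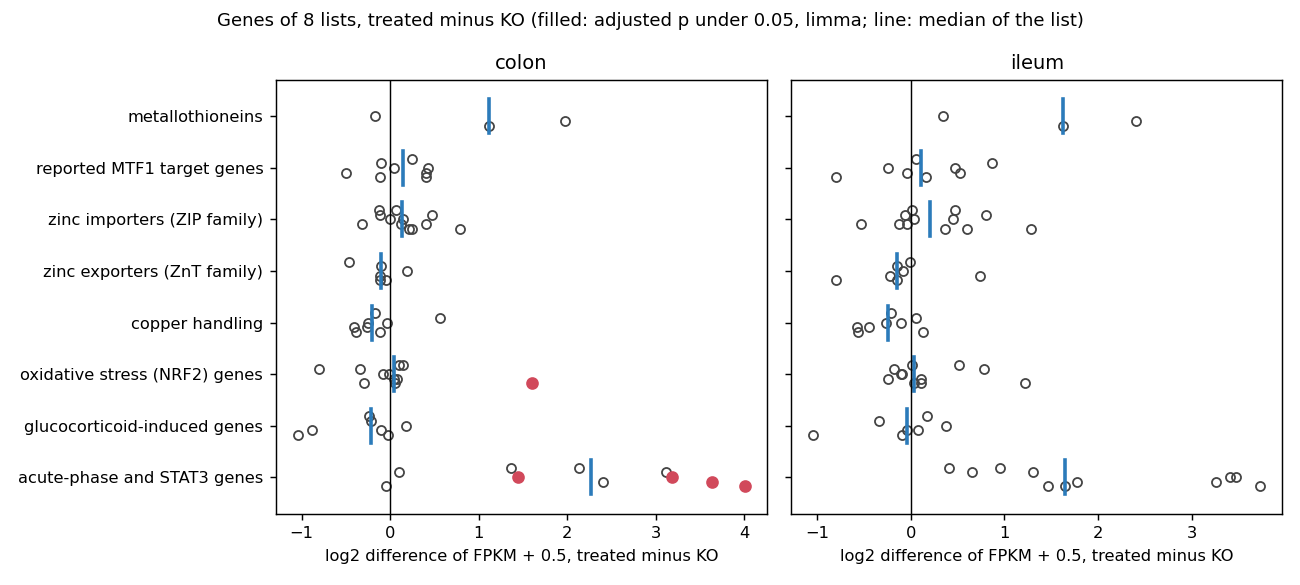
Difference in log2(FPKM + 0.5) between treated and KO mice for the tested genes of 8 lists in colon and ileum, with a line at each list's median and filled points for genes with a limma adjusted p under 0.05. Filled points are Saa3, Lrg1, Hp and Socs3 of the acute-phase list and Hmox1 of the oxidative stress list, all in the colon.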

How the data were processed

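From poly(A)-selected RNA, the authors deposited FPKM for 21441 genes in 6 tables. Per the labels' protocols, reads were mapped in CLC Genomics Workbench. Tools named without a role in the submitters' processing notes are kallisto 0.45.0, DESeq 1.14.0 and DESeq2, and the build is mm9. Groups follow the labels and columns, with 4 uninjected and 3 treated colon libraries, whereas the design text counts 3 and 4. Treated and uninjected ileum columns are tied to their group only.

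In each comparison, genes averaging 1 FPKM or more were fitted on log2(FPKM + 0.5) by limma 3.58.1 in R 4.3.3. Its prior followed a trend on the mean level, tests were two-sided, and p-values were adjusted by Benjamini and Hochberg's method across every gene fitted. Permutation tests used scipy 1.17.1. Reads were recovered from the steps of low values (tolerance 0.01), on the same step in both tissues for 77.4% of genes above 0 in colon and 79.6% in ileum. Scripts were tested on simulated data. The genes, the 20 lists (159 of 160 entries found) and the tests were chosen with earlier results of these data known. Genes named from a list are up to 3 past the threshold, or the 2 with the smallest p where none passed, and Socs3 was added. A gene that met a rule for naming is not reported here. Gene coordinates are GENCODE vM1 on mm9.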

Additional observations from a re-analysis of the deposited data

Results flagged for a closer look

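The Mtf1 level of Colon KO 1 stood apart from the other 3 libraries of its group, as the lowest, at 4.84 FPKM in the table with uninjected mice and at 5.13 FPKM in the table with treated mice. The other KO libraries were at 5.29 to 5.33 and at 5.61 to 5.68 FPKM. Both tables hold the same library, so this is 1 observation. The distance of the lowest or highest library from its nearest neighbour was checked in 21 groups, and chance alone sets about 1 in 20 groups apart. Colon KO 1 was also the KO colon library with the most Mt1 and Mt2.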

How the results depend on the processing

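Of 620 values under alternatives, 568 kept their direction and their side of the threshold, none crossed the threshold, and 52 changed sign. The 8 differences of Mt1 and Mt2 against KO kept their direction in all of them. Mt1 ranged from 0.46 to 1.43 and Mt2 from 0.77 to 1.75 in uninjected against KO colon, from 0.83 to 1.41 and 1.62 to 2.38 in treated against KO colon, from 1.36 to 2.0 and 1.65 to 2.16 in uninjected against KO ileum, and from 1.43 to 1.75 and 1.96 to 2.73 in treated against KO ileum. Their smallest adjusted p was 0.0811. Leaving out Colon KO 2 and Colon uninjected 3 gave 1.09 and 1.07 for Mt1 and Mt2 in uninjected against KO colon. With the replicate number as a block in the same comparison, the adjusted p was 0.379 for Mt1 and 0.427 for Mt2, and 3 genes passed in place of 10. The numbers did not pair these libraries, since deviations of same-numbered libraries correlated at 0.004, -0.003, -0.006 and 0.671, and libraries did not all correlate best with their own number.

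These differences turned sign. Mtf1 in uninjected against KO colon was 0.03 after quantile normalization, 0.16 with GC content and length removed and 0.06 without Colon KO 2 and Colon uninjected 3. Mt1 in treated against uninjected colon was 0.18, 0.2, 0.67 and 0.29 with quantile normalization, GC content and length removed, labelled sex as a covariate, and only libraries with Ddx3y above 1 FPKM, a choice made after seeing the data. With the latter, Mtf1 was 0.04 in that comparison, -0.2 in uninjected against KO ileum and 0.07 in treated against uninjected ileum, and voom gave -0.03 for Mtf1 in uninjected against KO ileum. Mt1 in treated against uninjected ileum was 0.21, 0.06 and 0.05 with quantile normalization, GC content and length removed and the Ddx3y choice. The log2 ratio of Mt1 to Mt2 in uninjected against KO colon was 0.02 without Colon KO 2 and Colon uninjected 3. On the linear scale the correlations of Mtf1 were 0.06 with Mt2 in treated and uninjected colon, and -0.02 with Mt1 and 0.09 with Mt2 in uninjected and KO ileum. The cause was not tested for any of these.

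With 1 library left out at a time, signs turned within these ranges. Mtf1 ran from -0.11 to 0.05 in uninjected against KO colon, from -0.33 to 0.003 in treated against uninjected colon, from -0.2 to 0.22 in uninjected against KO ileum, from -0.36 to 0.07 in treated against uninjected ileum and from -0.26 to 0.03 in treated against KO ileum. Mt1 ran from -0.29 to 0.29 in treated against uninjected colon and from -0.38 to 0.23 in the ileum, and Mt2 from -0.02 to 0.77 in the latter. For ileum minus colon, Mtf1 ran from -0.17 to 0.26 in uninjected against KO, from -0.17 to 0.26 in treated against uninjected and from -0.1 to 0.26 in treated against KO. Mt1 ran from -0.33 to 0.28 in treated against uninjected, and Mt2 from -0.65 to 0.15 there and from -0.02 to 0.77 in treated against KO. The log2 ratio in uninjected against KO ileum ran from -0.59 to 0.005.

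Counts of genes called also moved. In uninjected against KO colon 10 became 3 with the Ddx3y choice or without Colon KO 2 and Colon uninjected 3, and 2 to 68 with 1 library left out. In treated against KO colon 37 became 56 with GC content and length removed, 20 with 3 groups in 1 fit and 17 without these libraries, and 17 to 49 with 1 left out. In treated against KO ileum 10 became 4 by voom or with 3 groups, and 3 to 14 with 1 left out. In treated against uninjected mice, 0 became 1 to 4 in colon, the most with 3 groups or without these libraries, and 2 in ileum with 3 groups. In uninjected against KO ileum 1 became 0 to 5. For the tissue difference of treated against KO, 1 became 7 without a filter and 18 with same-numbered colon and ileum libraries as a replicate block, added after seeing the data.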

Other observations

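Genes whose pattern was most like that of the metallothioneins were sought among 11233 genes that averaged 1 FPKM or more in each of the 6 tables, by the lowest Pearson's r over the tables with the mean log2 level of Mt1 and Mt2, on 6 to 8 libraries each. Among the 5 leading genes were 3110099E03Rik (0.56 to 0.71), Rac1 and Lrrc28 (0.47 to 0.66 each) and 5033404E19Rik (0.46 to 0.96). For Mtf1 the 3 leading genes were Mcl1 (0.81 to 0.96), Anxa3 (0.78 to 0.89) and Ahcyl2 (0.74 to 0.91). Both groups of a table entered each r together, so that gaps between group means are part of these values. For example, 5033404E19Rik was at 42.4 FPKM in uninjected and 0.0626 FPKM in KO ileum, where Mt1 and Mt2 also stood apart. The tables share libraries, and the values describe these libraries only.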
